A study of Mus musculus with 7 samples.

Results

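The muscle miRNAs miR-1, miR-133a, miR-133b and miR-206 were followed in wound edge tissue of C57Bl6 mice, where 3 ischemic and 4 non-ischemic samples were taken 3 days after wounding. They are the 4 assays, out of 306 for mature miRNAs on the plate, whose name without species prefix and leading zeros matches one of these names, and all 4 passed the filter that left 103 miRNAs for testing. Ischemic wounds lay in a bipedicle flap, a skin strip cut free along its sides and so poorly supplied with blood in its middle, while non-ischemic wounds served as the controls; both groups are of the same strain and carry no other treatment in the labels. Levels are real-time PCR threshold cycles (Ct), one value per assay and sample, and no sex, age or number of animals per sample is given in the sources used here. Nothing in the labels says that samples of a group came from separate animals, and the p-values therefore speak of the spread among these 7 samples, part of which may be technical.

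miR-1 and miR-133a are made from shared precursor transcripts in heart and skeletal muscle fibres, and miR-133b and miR-206 come from a precursor of skeletal muscle. miR-206 is known for its part in regenerating fibres and in satellite cells, the stem cells of muscle. In muscle culture, miR-1 and miR-206 promote differentiation of myoblasts, and miR-133 is best known for keeping them dividing through serum response factor. Mouse skin holds a thin sheet of striated muscle, the panniculus carnosus, beneath the dermis.

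The mature forms of miR-206 and miR-133b are shown because they are partners of one locus with different seeds, the bases 2 to 8 by which a miRNA pairs with its targets. The seed is in capitals, and sequences and positions are those of RefSeq on GRCm38.p6.
mmu-miR-206-3p: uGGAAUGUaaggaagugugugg
mmu-miR-133b-3p: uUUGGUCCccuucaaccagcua
The 2 sequences match at 4 of 22 positions. miR-206-3p lies at chr1:20679055-20679076 and miR-133b-3p at chr1:20682834-20682855, both on the plus strand. Their hairpins are 3686 bases apart. Each hairpin is shown with its 2 mature arms in capitals, the 5′ arm first and the arm named above after the loop.
Mir206 hairpin: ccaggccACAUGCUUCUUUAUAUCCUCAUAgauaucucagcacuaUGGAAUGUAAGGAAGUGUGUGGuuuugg
Mir133b hairpin: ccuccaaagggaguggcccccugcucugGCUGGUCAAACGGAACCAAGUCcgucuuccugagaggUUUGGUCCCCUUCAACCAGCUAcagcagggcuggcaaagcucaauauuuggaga

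miR-1 and miR-133a have 2 gene copies each in the mouse, and miR-133b and miR-206 have 1 each. Mir1a-1 (chr2:180389048-180389124) and Mir133a-2 (chr2:180398379-180398482) stand 9254 bases apart within the host transcript Mir1a-1hg. The kinship of miR-1 and miR-206 can be seen in their 5′ arms, which were not assayed here and in which capitals again mark bases 2 to 8.
mmu-miR-206-5p: aCAUGCUUcuuuauauccucaua
mmu-miR-1a-1-5p: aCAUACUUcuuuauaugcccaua
These arms match at 20 of 23 positions and differ by G5A, C17G and U19C, with the miR-206-5p base first and positions counted from the 5′ end. They do not show the seeds of the assayed arms of miR-1 and miR-206, which were not compared here.

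miR-1, miR-133a and miR-133b had higher mean levels in ischemic than in non-ischemic wound edge, by 2.76-fold, 2.53-fold and 2.34-fold, and in each the lowest ischemic sample lay above the highest non-ischemic one, as for 4.85% of all tested miRNAs. Against 18S rRNA the groups overlapped for miR-1 and miR-133a, and against the mean of the snoRNA assays for all 3. Ischemic sample 3 stood apart from the rest, and without it the log2 differences were 0.95, 0.77 and 0.72, against 1.46, 1.34 and 1.23 with it. miR-206, known from regenerating fibres, differed by 1.26-fold with overlapping groups. None of the 4 passed an adjusted p of 0.05 in limma, where 0.0% of the 103 tested miRNAs were called. In whole tissue, a change in the share of muscle fibres and one in the miRNA per fibre cannot be told apart.

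Levels are first given as the linear ratio to 5S rRNA in units of 1e-06, which assumes that each cycle doubles the product. miR-1 stood at 60.9, 148 and 273 units in ischemic samples 1 to 3, against 41.4, 53.3, 47.0 and 55.4 in non-ischemic samples 1 to 4. Ischemic sample 1 lay just above the controls and ischemic sample 3 highest, without overlap. On the log2 scale miR-1 averaged -12.86 ± 1.09 in ischemic and -14.32 ± 0.19 in non-ischemic samples (SD, n = 3 and 4). The log2 difference of 1.46 ± 0.51 (SE) had a 95% interval of 0.30 to 2.63 and an adjusted p of 0.219 in limma.

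miR-133a, made from the same transcripts as miR-1, stood at 77.6, 90.7 and 273 units in ischemic samples, against 50.6, 54.0, 40.4 and 52.4 in non-ischemic samples. Here ischemic samples 1 and 2 lay close to each other, both above all controls, and ischemic sample 3 apart from them. The log2 level averaged -12.97 ± 0.99 in ischemic and -14.32 ± 0.19 in non-ischemic samples (SD, n = 3 and 4). The difference was 1.34 ± 0.48 (SE), with a 95% interval of 0.24 to 2.44 and an adjusted p of 0.219 in limma.

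miR-133b stood at 88.2, 123 and 296 units in ischemic samples, against 47.3, 72.5, 63.0 and 72.9 in non-ischemic samples, again in separate ranges. On the log2 scale it averaged -12.73 ± 0.90 in ischemic and -13.95 ± 0.29 in non-ischemic samples (SD, n = 3 and 4). The difference was 1.23 ± 0.47 (SE), with a 95% interval of 0.15 to 2.30 and an adjusted p of 0.219 in limma. The passenger arm miR-133a*, the only other assay of these hairpins on the plate, gave no product (Ct 40) in any sample.

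miR-206 stood at 14.1, 43.6 and 34.0 units in ischemic samples, against 19.3, 16.8, 22.0 and 31.5 in non-ischemic samples. Ischemic sample 1 was the lowest of all 7 and ischemic sample 2 the highest, so that the ischemic samples enclosed the controls. Its log2 level averaged -15.15 ± 0.86 in ischemic and -15.49 ± 0.39 in non-ischemic samples (SD, n = 3 and 4). The difference was 0.34 ± 0.48 (SE, adjusted p = 0.784 in limma), and its 95% interval of -0.74 to 1.42 includes 0 and also the differences of miR-133a and miR-133b.

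**Figure D1:**
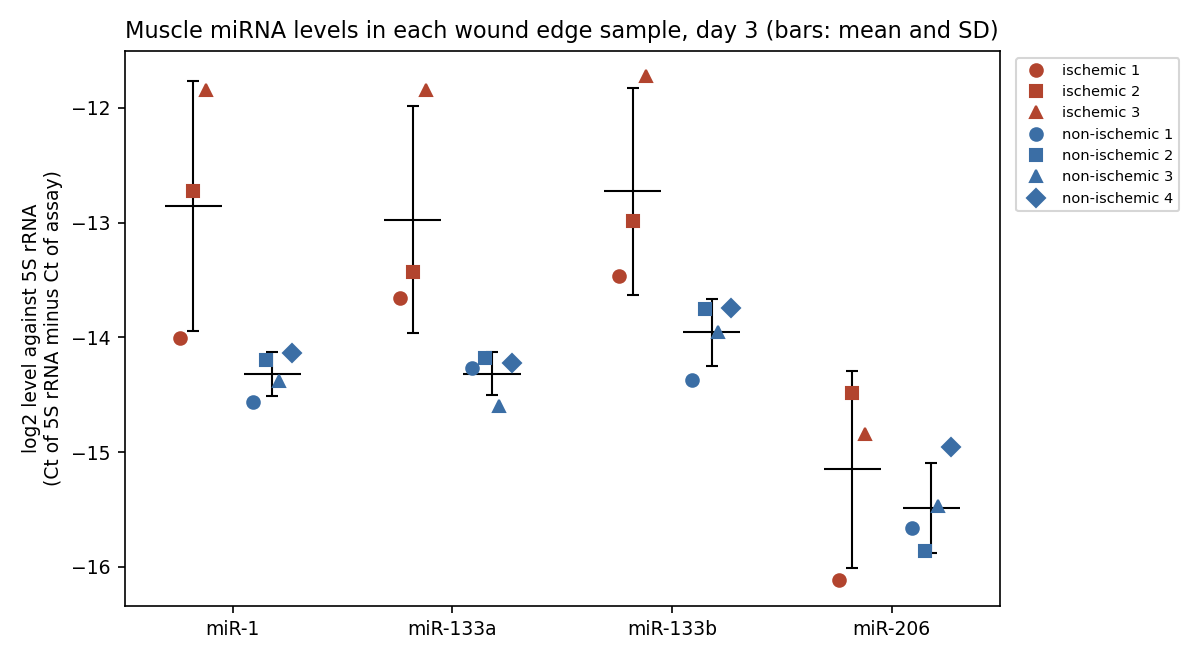
Log2 level against 5S rRNA of the 4 muscle miRNAs in each sample, ischemic (red) left of non-ischemic (blue), with horizontal bars for the mean and error bars for the SD. For miR-1, miR-133a and miR-133b the 3 ischemic samples lie above all 4 non-ischemic samples, with ischemic sample 3 highest, while for miR-206 ischemic sample 1 lies lowest and the groups overlap.

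Among the 103 tested miRNAs, the differences of miR-1, miR-133a and miR-133b ranked 3rd, 4th and 6th from the top and that of miR-206 ranked 14th. All 4 members had a higher mean in ischemic samples, as did 23.3% of tested miRNAs. The median difference was 1.28 over the 4 and -0.35 over all tested miRNAs. Relative to the median of all, miR-1 was 1.82, miR-133a 1.70, miR-133b 1.58 and miR-206 0.69 log2 units higher. An unadjusted p under 0.05 in limma was reached by 3 members (0.0195 for miR-1, 0.0225 for miR-133a and 0.0295 for miR-133b). The same held for 18.4% of tested miRNAs, or 4.85% counting those higher in ischemic samples alone. The fit takes a variance shared by both groups, while the SD of these 3 members was larger in ischemic samples, and unequal variances were not modelled. Groups that did not overlap, with ischemic samples higher, were found for 4.85% of tested miRNAs, which are these 3 members, miR-378 and the erythroid miR-451. Of these, miR-451 passed the filter only through the ischemic samples, where it was high, so its separation was favoured by the filter.

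**Figure D2:**
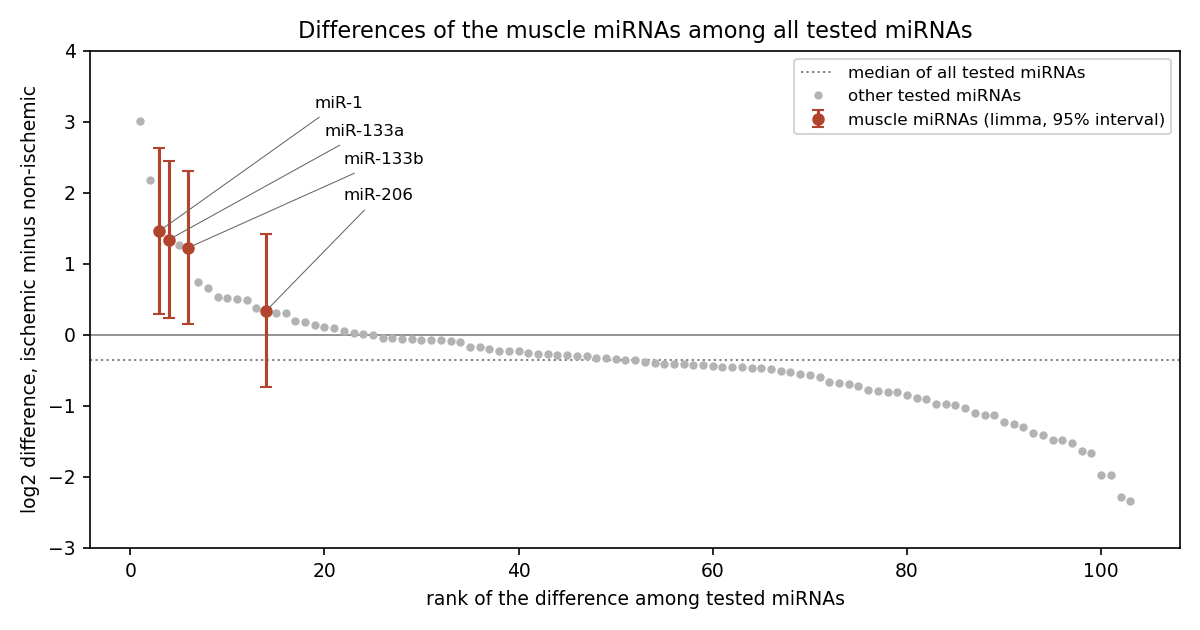
Log2 difference, ischemic minus non-ischemic, of the 103 tested miRNAs in order of size, with the muscle miRNAs in red with 95% intervals from limma and the dotted line at the median of all. The intervals of miR-1, miR-133a and miR-133b lie above 0 before adjustment, and that of miR-206 spans 0. They rest on a variance shared by both groups, although the members had a larger SD in ischemic samples.

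The separation of the groups depended on the reference. miR-1, miR-133a and miR-133b did not overlap either on raw Ct, where 7.77% of tested miRNAs were higher in ischemic samples without overlap, or after global mean or global median centring, where 10.7% and 11.7% were. Against 18S, miR-133b alone of the 4 did not overlap, among 2.91% of tested miRNAs. There the lowest ischemic sample minus the highest non-ischemic one was -0.02 log2 units for miR-1, through ischemic sample 1, and -0.14 for miR-133a, through ischemic sample 2. Against the mean of all 4 snoRNA assays each of the 4 members overlapped, by -0.69 for miR-1, -0.36 for miR-133a and -0.60 for miR-133b, and 0.971% of tested miRNAs did not. With snoRNA202 taken out of that mean, a setting chosen after seeing the data, the 3 did not overlap, among 4.85% of tested miRNAs. The mean of each of the 4 members was higher in ischemic samples under every one of these references and under quantile normalization.

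Ranks by Ct within a sample, which use no reference, placed the members among the most abundant PCR signals. Counted from the lowest Ct of 306, miR-133b ranked 6th, 6th and 3rd in ischemic samples, against 10th, 6th, 8th and 7th in non-ischemic samples. miR-1 ranked 8th, 4th and 5th, against 12th, 9th, 10th and 11th. miR-133a ranked 7th, 7th and 4th, against 9th, 8th, 12th and 12th. miR-206 ranked 27th, 12th and 10th in ischemic samples, against 28th, 23rd, 21st and 19th in non-ischemic samples. The ranks thus lay narrowly apart for miR-1 (8th against 9th) and miR-133a (7th against 8th), touched at rank 6 for miR-133b and overlapped for miR-206. How many of all tested miRNAs have ranks that separate the groups was not counted.

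The order of levels was miR-133b, then miR-1 and miR-133a, then miR-206, as PCR levels whose assay efficiencies are not given. miR-206 was the lowest of the 4 in 7 of 7 samples. miR-133b was above miR-1 in 6 of 7 samples and above miR-133a in 6 of 7. How well the assays tell miR-133a and miR-133b apart was not tested. Neighbours miR-1 and miR-133a did not differ beyond their spread, with a log2 ratio of miR-133a to miR-1 of -0.05 ± 0.35 (SD, n = 7) and miR-133a higher in 4 of 7 samples.

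Ratios between members within a sample are free of any reference RNA, and no ratio differed between the groups past the test. miR-206 was at 23.1%, 29.5% and 12.5% of the level of miR-1 in ischemic samples, against 46.5%, 31.5%, 46.8% and 56.9% in non-ischemic samples. All 3 ischemic values lay below all 4 controls, with ischemic sample 2 and non-ischemic sample 2 nearly touching. The log2 ratio averaged -2.29 ± 0.64 in ischemic and -1.17 ± 0.36 in non-ischemic samples (SD, n = 3 and 4), a difference of -1.12 with an exact two-sided permutation p of 0.0571 and 0.286 after adjustment over the 6 pairs. The smallest p that 3 and 4 samples allow is 0.0286, so a single pair could not pass after adjustment over the 6. Omitting 1 sample at a time gave differences of -1.39 to -0.77.

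Against its chromosomal neighbour miR-133b, miR-206 was at 15.9%, 35.4% and 11.5% in ischemic samples, against 40.7%, 23.1%, 34.9% and 43.2% in non-ischemic samples. The groups overlap here through ischemic sample 2. The log2 ratio differed by -0.89, and that of miR-206 to miR-133a by -1.003 (exact permutation p = 0.143 each, adjusted 0.286). miR-133a, the partner of miR-1, was at 127%, 61.3% and 100.1% of miR-1 in ischemic samples, against 122%, 101%, 85.9% and 94.6% in non-ischemic samples. Its log2 ratio differed by -0.12 (exact permutation p = 0.771), that of miR-133b to miR-1 by -0.23 (0.343) and that of miR-133b to miR-133a by -0.11 (0.600), and none of the 6 pairs passed after adjustment.

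**Figure D3:**
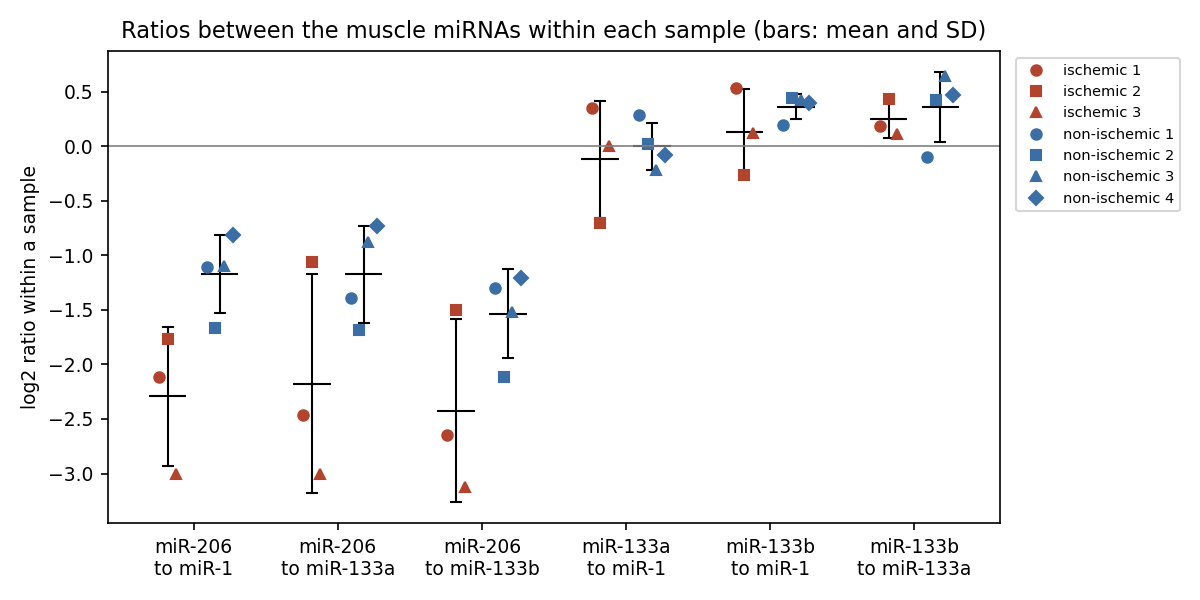
Log2 ratio between pairs of the muscle miRNAs within each sample, ischemic (red) left of non-ischemic (blue), with bars for mean and SD. The ratios of miR-206 to the other members have lower means in ischemic samples, by -1.12, -1.003 and -0.89, with overlap in all but the ratio to miR-1, while the differences of the remaining ratios are -0.12, -0.23 and -0.11.

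The summed level of the 4 members was 241, 405 and 875 units in ischemic samples, against 159, 197, 172 and 212 in non-ischemic samples. As a share of the summed level of all miRNAs with a Ct below 35 in the sample, this was 4.02%, 5.18% and 27.0%, against 2.32%, 3.09%, 2.73% and 2.36%. The share in ischemic sample 3 stands over a smaller total, as miR-223, the myeloid miRNA with the lowest Ct, deviated by -4.58 log2 units from its non-ischemic mean there. miR-206 made up 5.84%, 10.8% and 3.89% of the summed level of the 4 in ischemic samples, against 12.1%, 8.54%, 12.8% and 14.8% in non-ischemic samples. Ischemic samples 1 and 3 lay below all controls in this share, and ischemic sample 2 within them.

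Ischemic sample 3 stood apart from the rest, correlating with the other samples at 0.756 to 0.830 over the 76 miRNAs found in each of the 7, against 0.908 to 0.977 among those. It carried the largest deviation of miR-1, miR-133a and miR-133b from the non-ischemic mean, at 2.48, 2.48 and 2.23 log2 units, and ischemic sample 2 came next at 1.59, 0.89 and 0.96. Ischemic sample 1 deviated by 0.32, 0.66 and 0.49, where non-ischemic samples ran from -0.24 to 0.18, from -0.28 to 0.14 and from -0.41 to 0.21. miR-206 did not follow this order, with deviations of -0.63, 1.002 and 0.64 in ischemic samples 1 to 3 and of -0.37 to 0.54 in non-ischemic samples. Without ischemic sample 3 the differences were 0.95 for miR-1, 0.77 for miR-133a, 0.72 for miR-133b and 0.19 for miR-206, with adjusted p of 0.244, 0.244, 0.279 and 0.834 in limma. In that comparison 7.77% of tested miRNAs passed, and no member was among them. One member, miR-133a, had an unadjusted p under 0.05 there (0.0498), as did 20.4% of tested miRNAs. miR-1, miR-133a and miR-133b still did not overlap between the groups, which held for 6.8% of tested miRNAs in that direction. Without ischemic sample 2 the difference of miR-206 was 0.01, and without ischemic sample 1 it was 0.82.

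Marker miRNAs of other cell types mostly had lower means in ischemic samples, as did all tested miRNAs but the 23.3% with a higher mean. Their part in the result was not tested. The 3 myeloid and pan-leukocyte miRNAs (miR-223, miR-142-3p and miR-142-5p, all tested) had lower means in 3 of 3, and their summed log2 level was -8.39, -7.81 and -12.75 in ischemic samples 1 to 3, against -8.34 to -7.69 in non-ischemic samples. Ischemic sample 3 thus lay far below all controls, ischemic sample 1 just below them (-8.39 against -8.34) and ischemic sample 2 within them. This sum mostly follows miR-223, which deviated by -0.23, 0.36 and -4.58 in ischemic samples 1 to 3. miR-142-3p deviated by 0.59, 0.34 and -4.32 and miR-142-5p by 0.40, 0.45 and -4.17, so their lower means came through ischemic sample 3. Keratinocyte miRNAs had 5 of 7 listed members tested and lower means in 5 of 5, with miR-141 and miR-200a above Ct 35 in every sample. Their summed log2 level was -15.23, -15.67 and -15.13 in ischemic samples 1 to 3, against -15.15 to -14.25 in non-ischemic samples, with ischemic samples 1 and 2 below all controls. The log2 difference was -1.98 ± 0.50 for miR-200b and -1.41 ± 0.56 for miR-203 (SE, unadjusted p = 0.0035 and 0.0328, adjusted p = 0.120 and 0.219 in limma).

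Smooth muscle miRNAs did not separate the groups. Of miR-143 and miR-145, which mark vessel walls, miR-145 was tested, at -0.04 ± 0.39 (SE, adjusted p = 0.954 in limma), and miR-143 had a Ct above 35 in every sample. Their summed log2 level spanned -19.73 to -18.64 in ischemic and -19.70 to -18.90 in non-ischemic samples. The erythroid miRNAs miR-451 and miR-486 had higher means in 2 of 2. Their summed log2 level was -18.10 to -17.01 in ischemic and -21.63 to -19.13 in non-ischemic samples, also without overlap. miR-451 had a Ct above 35 in all 4 non-ischemic samples and so passed the filter only through the ischemic ones. The endothelial miR-126 differed by -0.46 ± 0.37 (SE, log2). In summed log2 level, ischemic against non-ischemic, the lymphocyte miRNAs (3 of 3 with lower means) spanned -16.01 to -15.69 against -15.53 to -15.43, and the fibroblast miRNAs -18.78 to -16.56 against -16.78 to -15.99. In the fibroblast list miR-214 was tested and miR-199a and miR-199b had a Ct above 35 in every sample.

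**Figure D4:**
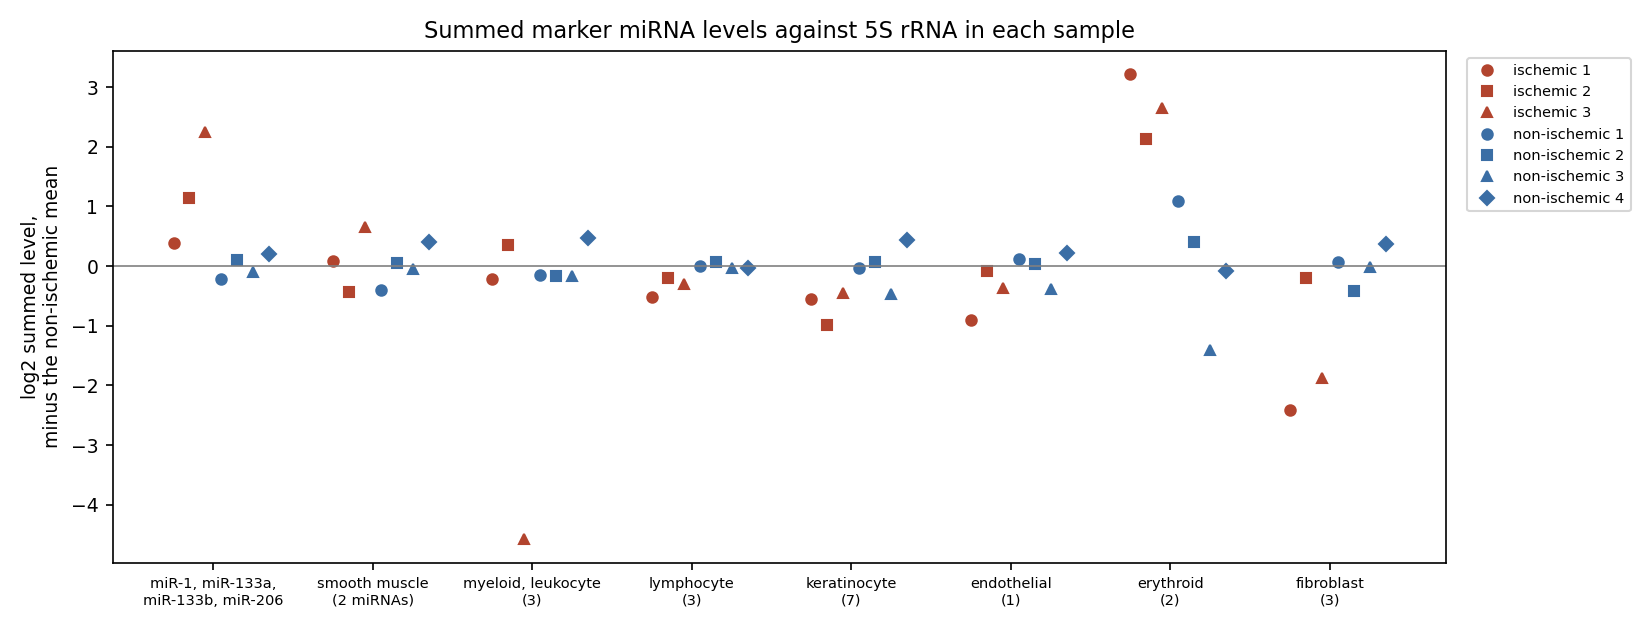
Log2 of the summed level of marker miRNAs minus the mean of the non-ischemic samples, for the 4 muscle members and 7 other lists, with 1 point per sample (red ischemic, blue non-ischemic). The muscle sum is highest in ischemic sample 3, where the myeloid sum is lowest, and the erythroid sum is above the controls in all 3 ischemic samples.

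Other miRNAs of striated muscle were mostly beyond detection. miR-208, which is encoded in a cardiac myosin gene, and miR-499, encoded in a myosin gene of slow fibres and heart, had a Ct of 40 in every sample. No assay on the plate is named miR-208b. miR-486, enriched in muscle and also abundant in red cells, had deviations of 1.57, 1.41 and 3.55 in ischemic samples and of 1.95, 1.30, -2.15 and -1.11 in non-ischemic samples. Its groups overlapped, and its log2 difference of 2.18 ± 1.02 (SE) had an adjusted p of 0.321 in limma.

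Of 20 miRNAs known from myoblast differentiation, 13 were tested, and miR-206 and miR-378 had a higher and the other 11 a lower mean in ischemic samples. The median difference of the 13 was -0.28, beside -0.35 over all tested miRNAs, and 0 passed an adjusted p of 0.05 in limma (2 had an unadjusted p under 0.05, miR-214 and miR-378, beside 18.4% of all tested miRNAs). miR-214, which promotes muscle differentiation and is also a fibroblast miRNA, was at -1.53 ± 0.55 (SE, adjusted p = 0.219). miR-29a, which restrains collagen synthesis, was at -0.53 ± 0.34 and miR-26a at -0.30 ± 0.34. miR-24 was at -0.28 ± 0.35 and miR-27b, which acts on Pax3 in muscle progenitors, at -0.44 ± 0.60.

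The miRNAs closest in pattern were found by the root mean square difference of log2 levels over the 7 samples, each miRNA centred on its own mean, as a description. miR-133a and miR-133b were each other's nearest of 102 other tested miRNAs, at 0.23 log2 units. Whether either of these assays also detects the other miRNA was not tested. miR-1 lay 0.26 from miR-133b and 0.33 from miR-133a. The median over all others was 1.30 for miR-1, 1.27 for miR-133a and 1.20 for miR-133b. The nearest miRNA outside the members was miR-378 for all 3, at 0.50, 0.51 and 0.33, followed by miR-328 at 0.58, 0.52 and 0.51, and miR-434-3p came next for miR-133a and miR-133b at 0.57 and 0.56.

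miR-378, which is encoded within the gene of the metabolic coactivator PGC-1 beta, had deviations of 0.90, 1.03 and 1.88 in ischemic samples, against -0.95, 0.30, 0.01 and 0.64 in non-ischemic samples. Its log2 difference was 1.27 ± 0.48 (SE, adjusted p = 0.219 in limma), at Ct values of 32.0 to 34.96, close to the detection limit. miR-328, at 0.49 ± 0.47, deviated by -0.35 in ischemic sample 1 and 1.42 in ischemic sample 3 with the members' high value shared in ischemic sample 3 but not in ischemic sample 1.

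The nearest to miR-206 were miR-30b at 0.37, miR-182 at 0.40, miR-30c and miR-125a at 0.42 each and miR-328, shared with the other members, at 0.43, against a median of 0.80. miR-133b, miR-1 and miR-133a ranked 31st, 32nd and 50th of 102, at 0.68, 0.69 and 0.79. Seen from the other side, miR-206 was the 5th nearest of 102 to miR-1, the 10th to miR-133b and the 13th to miR-133a. This measure favours miRNAs that vary little, since miR-206 itself ranged over 1.63 log2 units where miR-1, miR-133a and miR-133b ranged over 2.72, 2.76 and 2.65.

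The authors' deposited table gives folds of 3.26 for miR-1, 2.98 for miR-133a, 2.64 for miR-133b and 1.36 for miR-206, ischemic over non-ischemic. These are ratios of arithmetic means of the linear level, which weigh ischemic sample 3 more than the log2 means do, and they exceed the 2.76-fold, 2.53-fold, 2.34-fold and 1.26-fold of the log2 scale.

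**Figure D5:**
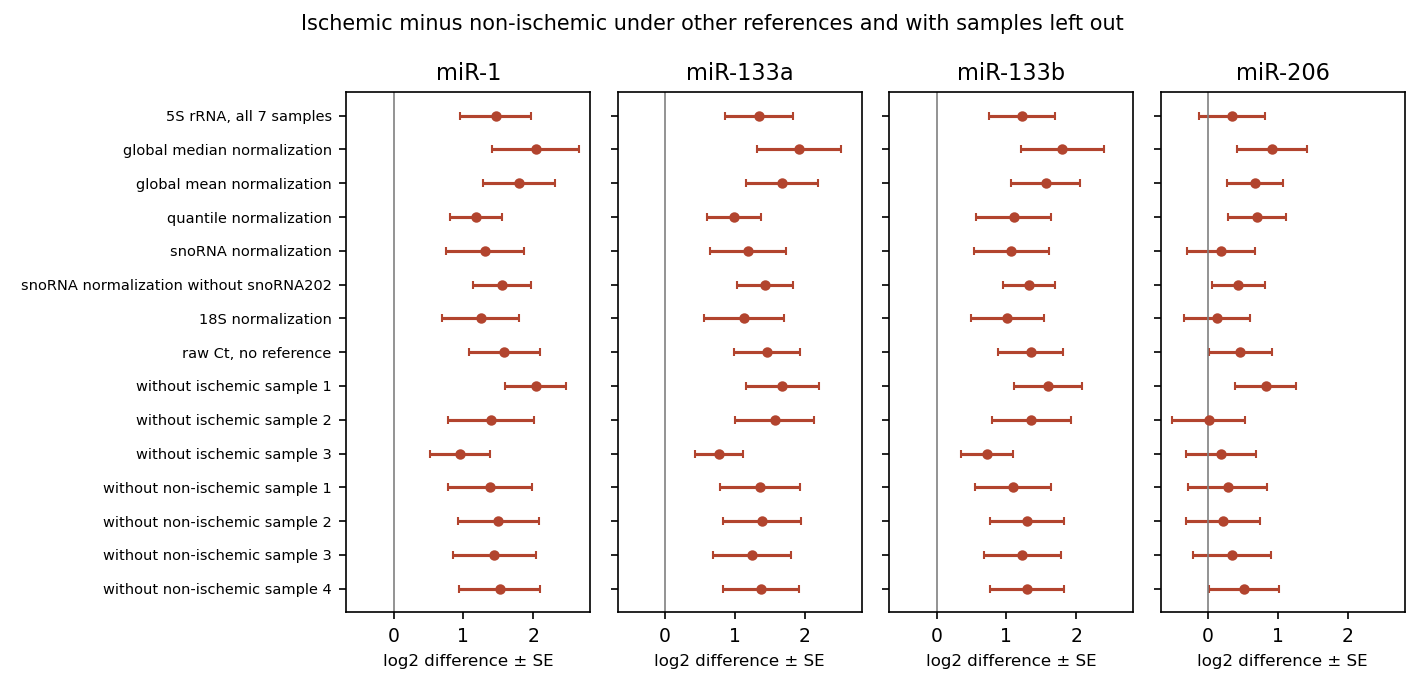
Log2 difference, ischemic minus non-ischemic, of each muscle miRNA against other references and with each sample left out, with error bars for the SE of limma. All points lie above 0, and those of miR-1, miR-133a and miR-133b are lowest without ischemic sample 3, at 0.95, 0.77 and 0.72.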

How the data were processed

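Levels of mature miRNAs come from real-time PCR, per the labels from 500 ng RNA of the miRVana kit on a 7900HT instrument with plates of 384 wells. Software for setting the Ct is not given in the sources. The authors deposited raw Ct values of 316 assays, where 40 stands for no product. Per the file headers the second table is a delta Ct: these deposited log2 values equal the Ct of 5S rRNA minus that of the assay for 315 assays within 0.0001 cycles, the exception being 18S, whose sign is turned. The linear ratio to 5S rRNA was deposited by the authors, as were group means of that ratio and their fold. A further 7 columns that repeat the 5S rRNA Ct were not used.

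The log2 level was tested with limma 3.58.1 in R 4.3.3 (lmFit, eBayes, two-sided, Benjamini-Hochberg) over the 103 miRNAs that reached a Ct under 35 in 3 or more samples, with values given as ischemic minus non-ischemic. Ratios of members were compared by exact permutation of the 7 samples. The Ct of 5S rRNA ran from 14.5 to 14.6 in ischemic and from 14.5 to 14.8 in non-ischemic samples, and 91 to 106 and 94 to 103 miRNAs were detected. PCR gives no counts here, so the spread between samples sets the precision. The procedures were tested on simulated data. The members, lists and the rule for named miRNAs (the members, their 5 nearest in pattern, the other muscle miRNAs, the 6 smallest p of the myoblast list and the cell type markers) were chosen with earlier results of these data known. Alternatives were other references, filters, treatments of late Ct, a variance model, linear values, samples left out and the replicate number as a block.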

Additional observations from a re-analysis of the deposited data

How the results depend on the processing

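Each of the 4 muscle miRNAs kept a higher mean in ischemic samples and an adjusted p above 0.05 under all 21 alternatives run, with log2 differences of 0.95 to 2.04 for miR-1, 0.77 to 1.92 for miR-133a, 0.72 to 1.80 for miR-133b and 0.01 to 0.92 for miR-206, and adjusted p of 0.105 to 0.549, 0.105 to 0.559, 0.105 to 0.559 and 0.431 to 0.989. The lowest adjusted p of miR-1, miR-133a and miR-133b came from the snoRNA reference without snoRNA202, which was chosen after seeing the data, and that of miR-206 from quantile normalization. No muscle miRNA was called under any alternative. Over all tested miRNAs the count called was 0 against 5S rRNA (19 at an unadjusted p under 0.05, and 0 in the exact permutation test), 1 after global median and 1 after quantile normalization, and ran from 0 to 8 over samples left out in turn, with 8 without ischemic sample 3. The share of miRNAs higher in ischemic samples was 23.3% against 5S rRNA, 68.0% after global median, 48.5% after global mean, 52.4% after quantile normalization, 33.0% on raw Ct and 43.7% without ischemic sample 3, and the median difference of all was -0.35, 0.22, -0.02, 0.03, -0.23 and -0.14. Relative to that median miR-1 was 1.82 higher against 5S rRNA, 1.15 after quantile normalization and 1.10 without ischemic sample 3. Scaling to another single reference cannot change this value, as it shifts all miRNAs of a sample alike. The log2 ratio of miR-133a to miR-1 turned to 0.17 without ischemic sample 2 and to 0.031 with group medians, and ran from -0.35 to 0.17 over samples left out. The other 5 ratios kept their sign. The summed log2 level of the 4 members was 1.26 higher in ischemic samples, 1.66 as a share of the summed miRNA level, and ran from 0.765 to 1.70 over samples left out, lowest without ischemic sample 3 and highest without ischemic sample 1. The cause of these moves was not tested. With the replicate block the differences were 1.52, 1.37, 1.30 and 0.52 (adjusted p = 0.549, 0.559, 0.559 and 0.886 in limma), and no call changed. Deviations of same-numbered samples correlated at -0.08, -0.30 and -0.11, and those of differently numbered samples at -0.43 to 0.41. So few values cannot show whether same-numbered samples are paired, and the labels do not say.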
